A study of Rattus norvegicus with 16 samples.

Results

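Femurs of 2 rat strains were compared, F344 (Fischer 344) with 4 expression arrays and LEW (Lewis) with 4, out of 16 arrays in all. The other 8 arrays came from the strains COP (Copenhagen 2331) and DA (Dark Agouti), 4 each. They are a background against which to place the 2 strains. They also enter the level filter and the estimate of spread behind every p-value. The arrays were taken by their titles. All animals were 4 weeks of age, and RNA came from the upper end of the thigh bone with whatever marrow, growth plate cartilage and attached muscle it held. The labels name no treatment and no altered gene in any group, do not give the sex, and do not say whether the 4 arrays of a strain came from separate animals. The p-values therefore reflect only the variation among these arrays, part of which may be technical. F344 and LEW are the parents of a cross in which a locus for bone traits was mapped to chromosome 4. The study asked which genes there are expressed at different levels in the parents. Every gene on the array is considered here, on chromosome 4 and elsewhere.

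The upper femur of a young rat is a mixture of tissues. A growth plate of cartilage lengthens the bone, osteoblasts lay down type I collagen that mineralizes, osteocytes lie within the matrix, and osteoclasts resorb it with acid and proteases. The marrow between the bone spicules makes red cells, platelets, granulocytes, monocytes and B cells, and it is the largest source of dividing cells in the tissue. F344 and LEW are inbred strains long used as a pair because they differ in inflammatory and stress responses and in bone strength. RT1 is the rat histocompatibility complex, and which of its alleles F344 and LEW share was not examined here.

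Markers of the labelled tissue were bright in both strains. The osteoblast genes Col1a1 and Bglap had signals of 56470 to 66190 and 48770 to 53310 in F344, against 59420 to 66080 and 52260 to 58170 in LEW. The lowest signal of the cartilage collagen Col2a1 was 52260 in F344 and 49520 in LEW, that of the osteoclast gene Acp5 30950 and 25450, and that of the erythroid gene Alas2 23070 and 24290. The muscle gene Acta1 was at least 51690 in F344 and 52860 in LEW. The osteocyte marker Sost and the T cell markers Cd3d and Cd3e were below the level needed for testing, a mean signal of 173.5, while the osteocyte genes Dmp1 and Phex were above it. Signals were scaled by the authors so that every array had nearly the same trimmed mean, and array medians ran from 312 to 324 in F344 and from 302 to 322 in LEW. Across kept probe sets, arrays correlated at 0.986 to 0.989 within F344, at 0.977 to 0.987 within LEW and at 0.967 to 0.973 between the strains, where probe sets are not independent replicates. The median SD of log2 signals was 0.121 within F344 and 0.154 within LEW. The number of arrays limits the precision of every value.

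By limma with a Benjamini-Hochberg adjusted p under 0.05, 1529 of the 10548 genes tested were called different, or 14.5%. Of these, 734 were higher in F344 (6.96%) and 795 were lower (7.54%); with every array centred on its median, the numbers were 584 higher and 867 lower. The same fit called 2567 of 18625 probe sets, or 13.8%. The 4 F344 arrays and the 4 LEW arrays did not overlap for 2036 genes (19.3%), and 1314 genes were both called and free of overlap (12.5%). Differences below are F344 minus LEW on the log2 scale and are positive where F344 was brighter.

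Most differences were small. Of the called genes, 200 differed by less than 0.25 in absolute log2, 803 by 0.25 to 0.5, 412 by 0.5 to 1, 90 by 1 to 2 and 24 by more. The median was 0.40 against a median standard error of 0.099 over all genes tested, and the median signed difference over all genes was 0.012. A change of 2-fold or more was found for 114 called genes (1.08% of those tested), 57 higher in F344 and 57 lower.

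**Figure D1:**
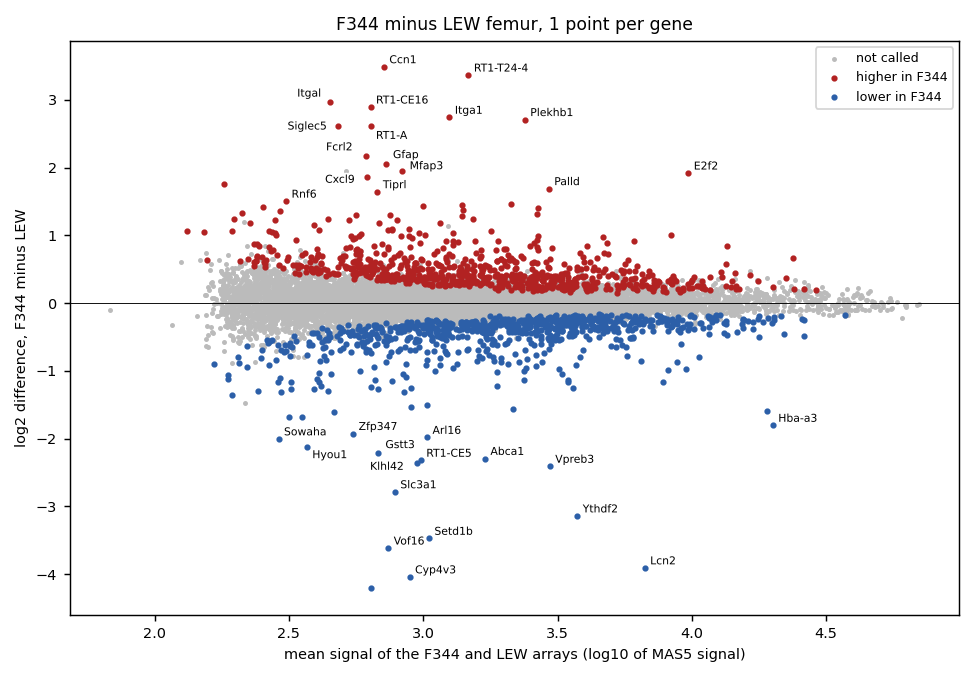
Log2 difference of F344 minus LEW (vertical) against the log10 of the mean signal (horizontal), 1 point per gene, for 10548 genes. Red points are the 734 genes called higher in F344, blue points the 795 called lower and grey points were not called; names mark the 16 largest rises and falls that have a gene name and no overlap between arrays. The lowest point is a numbered locus left unnamed; E2f2, Lcn2 and Hba-a3 are bright as well as far from 0.

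Among genes with a mean signal of at least 1000 in both strains, those with the smallest p-values included the following. E2f2, a transcription factor that turns on genes for S phase, had signals of 15355, 14862, 15973 and 15189 on the F344 arrays, against 4454, 4032, 4407 and 3413 on the LEW arrays. Every F344 array was more than 3 times as bright as every LEW array (log2 difference 1.92, SE 0.069, limma adjusted p = 3.69e-14). Pf4, platelet factor 4, a chemokine stored in platelet granules, had signals of 9337, 9399, 9674 and 9531 on the F344 arrays, against 30592, 26828, 31571 and 25953 on the LEW arrays. Here the F344 arrays were all lower and lay within a narrow band (log2 difference -1.59, SE 0.072, limma adjusted p = 1.24e-12). Mdm4, which binds and restrains p53, had 2998, 3104, 3053 and 3266 on the F344 arrays, against 1159, 1122, 1098 and 1111 on the LEW arrays. The 2 sets were far apart and the gene rose in F344 (log2 difference 1.47, SE 0.074, limma adjusted p = 6.37e-12). Its other kept probe set was not called.

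Lig4, the DNA ligase that seals double-strand breaks and joins antigen receptor segments, had signals of 1196, 1109, 1043 and 1028 on the F344 arrays, against 3288, 3233, 3405 and 3009 on the LEW arrays. It fell in F344 (log2 difference -1.56, SE 0.089, limma adjusted p = 4.55e-11) and its other kept probe set was called the same way. Cd93, a C-type lectin-like receptor of endothelial and myeloid cells, had signals of 2375, 2189, 1928 and 2189 on the F344 arrays, against 4282, 4367, 4069 and 4276 on the LEW arrays. The LEW arrays lay between 4069 and 4367, and no F344 array was above 2375 (log2 difference -0.97, SE 0.065, limma adjusted p = 7.25e-10). Its other kept probe set was not called (-0.25). Cnn2, a calponin that binds actin, had 5010.1, 5311, 4738 and 4310.3 on the F344 arrays, against 11289.8, 9979, 11018 and 11026 on the LEW arrays and fell (log2 difference -1.16, SE 0.08, limma adjusted p = 1.13e-09). Palld, palladin, which bundles actin, went the other way with 4547, 3840.0, 4479 and 5026 on the F344 arrays, against 1402, 1626, 1057 and 1505 on the LEW arrays (log2 difference 1.69, SE 0.12, limma adjusted p = 1.1e-09).

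Tsc22d4, of the TSC22 family of leucine zipper proteins, averaged 3871 ± 476 in F344 and 1465 ± 178 in LEW (SD, n = 4 each, log2 difference 1.40, SE 0.09, limma adjusted p = 3.73e-10). Its other kept probe set differed the other way (-0.25) and was not called. Fis1, an outer membrane protein of mitochondrial fission, averaged 6106 ± 98.1 in F344 and 3681 ± 128 in LEW (SD, n = 4 each, log2 difference 0.73, SE 0.052, limma adjusted p = 1.57e-09). Ifitm1, an interferon-induced membrane protein that restricts virus entry, averaged 6177 ± 475 in F344 and 3144 ± 236 in LEW (SD, n = 4 each, log2 difference 0.97, SE 0.066, limma adjusted p = 9.37e-10). Ube3al1 fell, with a log2 difference of -1.16. Rab14, a small GTPase of endosomes, rose by 1.01 on its brightest probe set, but 2 other kept probe sets were called lower in F344 and 1 was not called, so its direction is not settled by the array.

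The largest differences of all included genes with less signal in 1 of the strains. Itga1, which encodes an integrin chain that binds collagen, had signals of 2050.1, 2215, 2152 and 2267 on the F344 arrays, against 341, 392, 219 and 377 on the LEW arrays. Its means of 369 in COP and 351 in DA were like LEW. Plekhb1, a pleckstrin homology domain protein, had 4209, 4135, 4247 and 3979 on the F344 arrays, against 686, 675, 639 and 543 on the LEW arrays, with 1358 in COP and 1779 in DA on average. All F344 arrays were above all arrays of LEW for both. Lcn2, lipocalin-2, which binds bacterial siderophores and is a product of neutrophils, had 878, 817, 831 and 812 on the F344 arrays, against 13346, 12754, 12031 and 11975 on the LEW arrays. COP stood with LEW and DA with F344, at 17160.0 in COP and 1023 in DA. Ccn1, a matricellular protein that binds integrins, had 1385, 1321, 1250.1 and 1263 on the F344 arrays, against 125, 116, 181 and 69.4 on the LEW arrays. The LEW arrays were low and the other strains, at 1284 in COP and 1404 in DA, were like F344. Of the 60 largest rises and falls, 16 had a lower strain mean under 173.5, where a fold rests on a dim signal.

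Among the next largest rises, Mfap3, a microfibril-associated glycoprotein, averaged 1329 ± 168 in F344 and 344 ± 50.1 in LEW (SD, n = 4 each). Cxcl9, a chemokine induced by interferon gamma that draws activated T cells, had signals of 907, 962, 965 and 1013 in F344 and 239, 251, 235 and 351 in LEW (log2 difference 1.86, SE 0.15, limma adjusted p = 9.03e-09). A second kept probe set of Cxcl9 was called the same way. Uhrf1, which reads newly replicated DNA and recruits the maintenance methyltransferase, had 2199, 1831, 1872 and 2167 in F344 and 543, 810.0, 1061 and 641 in LEW (log2 difference 1.44, SE 0.17, limma adjusted p = 2.86e-06). Its LEW arrays were spread more widely than its F344 arrays, without overlap.

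Tiprl, a regulator of protein phosphatases, rose by 1.64, the ubiquitin ligase gene Rnf6 by 1.50 and the immunoglobulin lambda constant gene Iglc1 by 1.44. Iglc1 was higher still in the other strains, with means of 4068 in COP and 3520.0 in DA. Nmrk2, a nicotinamide riboside kinase of muscle, averaged 2026 in F344 and 784 in LEW (log2 difference 1.37). Clcn3, a chloride-proton exchanger of endosomes, averaged 3766 ± 147 in F344 and 1531 ± 248 in LEW (SD, n = 4 each, log2 difference 1.31, SE 0.10, limma adjusted p = 8.61e-09), and all 3 of its other kept probe sets were called the same way. Ddx60, an RNA helicase of antiviral defence, rose by 1.36, Impa2, an inositol monophosphatase, by 1.30, Ifi27l2b, of an interferon-induced family, by 1.29 and Fam120c by 1.24. Ubd, a ubiquitin-like modifier, had a difference of 1.42 with all arrays (limma adjusted p = 0.0377) and lost its call in 6 of the 8 fits that left out 1 array. The difference was 0.90 without LEW replicate 1 (limma adjusted p 0.132).

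Among the next largest falls, Gstt3, a glutathione transferase, had signals of 245, 273, 229 and 216 in F344 and 1094, 1288, 1014 and 1077 in LEW (log2 difference -2.22, SE 0.15, limma adjusted p = 5.48e-10). Hyou1, a chaperone of the endoplasmic reticulum, had 180.0, 88.6, 161 and 134 in F344 and 661, 589, 562 and 573 in LEW (log2 difference -2.13, SE 0.18, limma adjusted p = 4e-08). All LEW arrays lay above all F344 arrays for both, and for Hyou1 the F344 arrays were near or under the filter level. Hba-a3, an alpha globin, had 10401, 8065, 7635 and 9818 in F344 and 32719.6, 31881, 29869 and 29920.2 in LEW (log2 difference -1.80, SE 0.24, limma adjusted p = 1.48e-05). Globin genes are near copies of each other, so its signal can be shared with other alpha globins. By strain means Hba-a3 split the same way as Drg1, a GTP-binding protein: F344 and COP low, LEW and DA high, with Drg1 at 229.7 in F344 and 699 in LEW and 207 in COP and 762 in DA. The COP arrays of Hba-a3 were spread widely, with a mean of 9363 and an SD of 5025, against an SD of 41 for Drg1 in COP.

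Arl16, a small GTPase, averaged 419.6 in F344 and 1647 in LEW (log2 difference -1.98), and its second kept probe set was called the same way. Hpse, heparanase, which cuts heparan sulphate in matrix, averaged 153 in F344 and 481 in LEW, while COP and DA were like LEW at 609 in COP and 607 in DA. Gal, the neuropeptide galanin, averaged 454 ± 38.2 in F344 and 1341 ± 312 in LEW (SD, n = 4 each, log2 difference -1.54, SE 0.20, limma adjusted p = 9.57e-06). Slc14a1, the urea transporter of red cells, averaged 537 in F344 and 1519.8 in LEW, with another probe set called the same way, and COP and DA were like F344 at 588 in COP and 628 in DA. Nin, the centrosome protein ninein, averaged 489 in F344 and 1211 in LEW, and Sowaha 126 in F344 and 452 in LEW. Zfp347, a zinc finger protein, fell by 1.92, Ssc4d, with scavenger receptor cysteine-rich domains, by 1.67, Mtmr1, a phosphoinositide phosphatase, by 1.35, Eral1, a GTPase that helps assemble the mitochondrial ribosome, by 1.30, the keratin gene Krt79 by 1.29, Spetex2l2 by 1.31 and Alkbh4, a dioxygenase, by 1.27. The other kept probe set of Alkbh4 was not called.

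**Figure D2:**
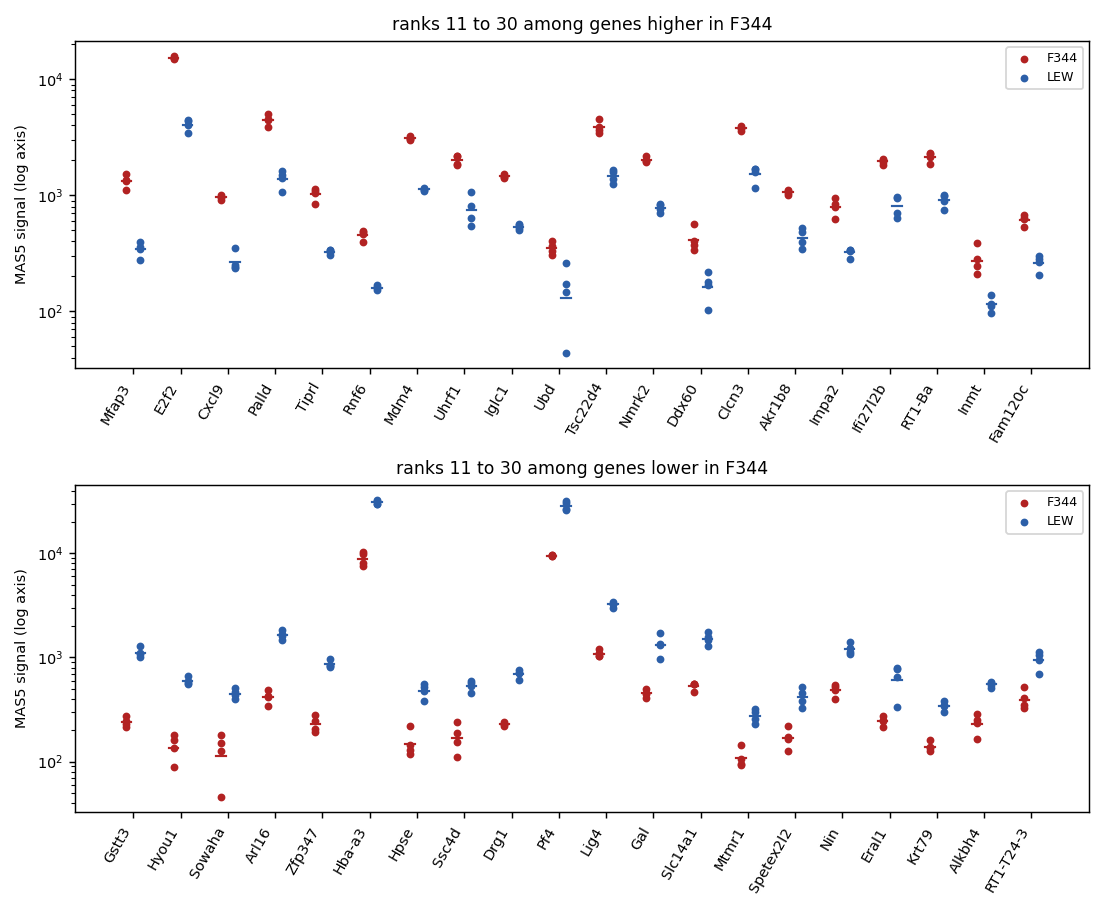
MAS5 signal (log axis) on each F344 array (red) and each LEW array (blue) for the genes ranked 11 to 30 among rises (top) and falls (bottom); points are arrays and bars the mean of the log2 values of 4 arrays. The sets do not overlap for any gene shown, by the rule that chose them; Ubd and Eral1 have the widest spread among LEW arrays and Pf4 the narrowest among F344 arrays.

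The means of COP and DA were set beside those of F344 and LEW, as a description without a test. Of the 1314 called genes without overlap, both COP and DA had means nearer to LEW for 545 and nearer to F344 for 294. For 252 COP was nearer to F344 and DA to LEW, and for 223 DA was nearer to F344 and COP to LEW. The 30 largest rises had the reverse balance, with COP and DA both nearer to F344 for 17 and both nearer to LEW for 6. Among the 30 largest falls both were nearer to F344 for 9 and both nearer to LEW for 13. Ythdf2, a reader of N6-methyladenosine in RNA, stood apart in LEW alone, at 762 in F344 and 6731 in LEW and 880.0 in COP and 859.9 in DA. Cyp4v3, a fatty acid hydroxylase, stood apart in F344 alone, at 104 in F344 and 1676 in LEW and 1236 in COP and 1620.4 in DA.

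Between COP and DA, 1282 of 10548 genes were called (12.2%), from arrays shared with neither F344 nor LEW. Of these, 376 were also called between F344 and LEW, which is 24.6% of the F344 and LEW genes and 29.3% of the COP and DA genes. All 4 strains share the estimate of spread in the fit, so the 2 lists are not fully separate.

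**Figure D3:**
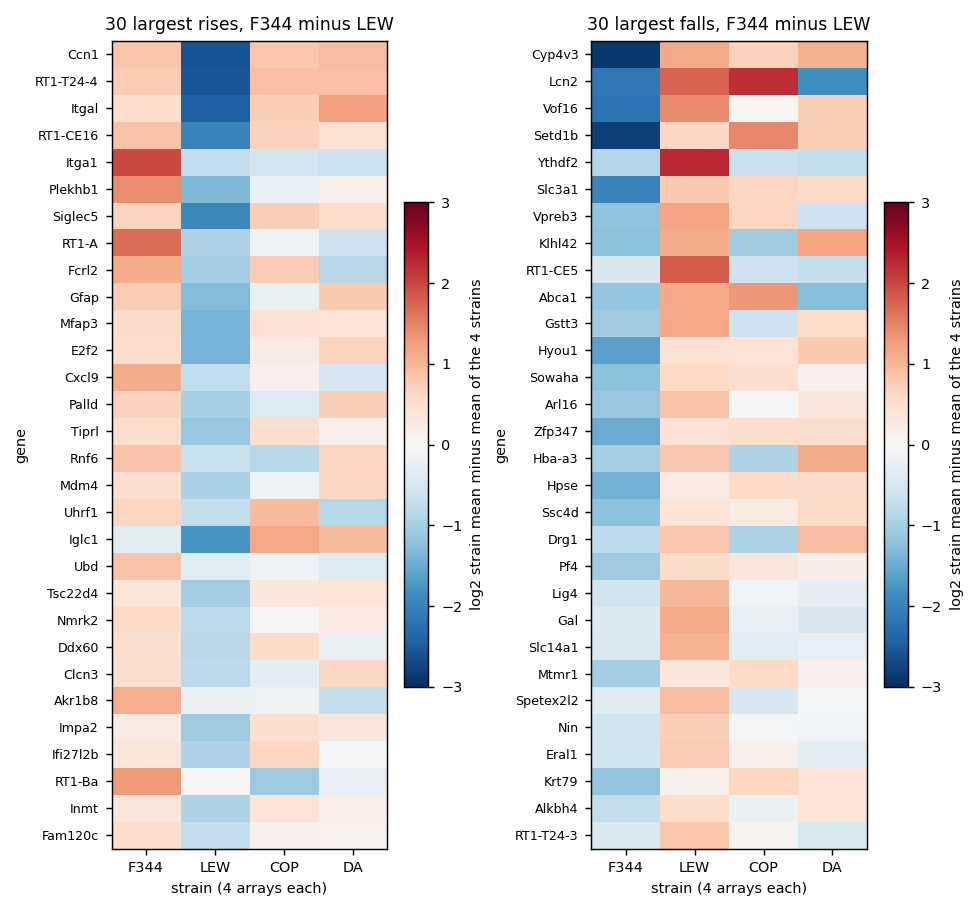
Colour gives the log2 mean signal of a strain minus the mean of the 4 strains, for F344, LEW, COP and DA (columns, 4 arrays each), in the 30 largest rises (left) and 30 largest falls (right) of F344 minus LEW. Ccn1, RT1-T24-4, Itgal and Siglec5 are low in LEW alone, Itga1 is high in F344 alone, Cyp4v3 and Slc3a1 are low in F344 alone and Ythdf2 is high in LEW alone.

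A call was often not shared by another probe set of the same gene. Of the called genes, 452 had at least 1 more kept probe set; for 150 of them another was called in the same direction, for 25 another was called in the opposite direction and for 281 no other was called. Those 281 include Lef1, Srsf1, Acaa2, Kif2c, Cyp51 and Unc5b, described below. Of 678 genes with at least 3 kept probe sets, 8 had all of them called one way. Higher throughout in F344 were Clcn3, Tspan33 (0.44), a tetraspanin, and Cav1 (0.38), caveolin-1. Lower throughout were Igf1 (-0.80), Atp8a1 (-0.61), a phospholipid flippase, Cep295 (-0.46), a centriole protein, and the less stable Xpo7 (-0.28; adjusted p 0.0568 without LEW replicate 3) and Cklf (-0.25; adjusted p 0.0523 without F344 replicate 3). The part of sequence differences between the strains under the probes in these values was not tested.

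Gene groups are described next by how many of their measured members passed, beside the 6.96% of all genes that were called higher and the 7.54% called lower. Members passed the level filter on the mean of all 16 arrays; 1619 of 1893 listed genes with a named probe set did. Because the RNA is from whole tissue, fewer cells of a type and less RNA per cell cannot be told apart. The LEW arrays were uneven in the levels of cartilage and muscle genes. The mean of cartilage genes, on log2 signals centred on the 8 arrays, was -0.53, -0.066, -0.36 and 0.36 on LEW replicates 1 to 4. On the F344 arrays it was 0.12 to 0.18. The part of tissue makeup in these levels was not tested. Muscle genes ran from -0.25 on LEW replicate 4 to 0.12 on LEW replicate 1. Counts that move by more than 1.5 times when an array is left out are given with that array.

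**Figure D4:**
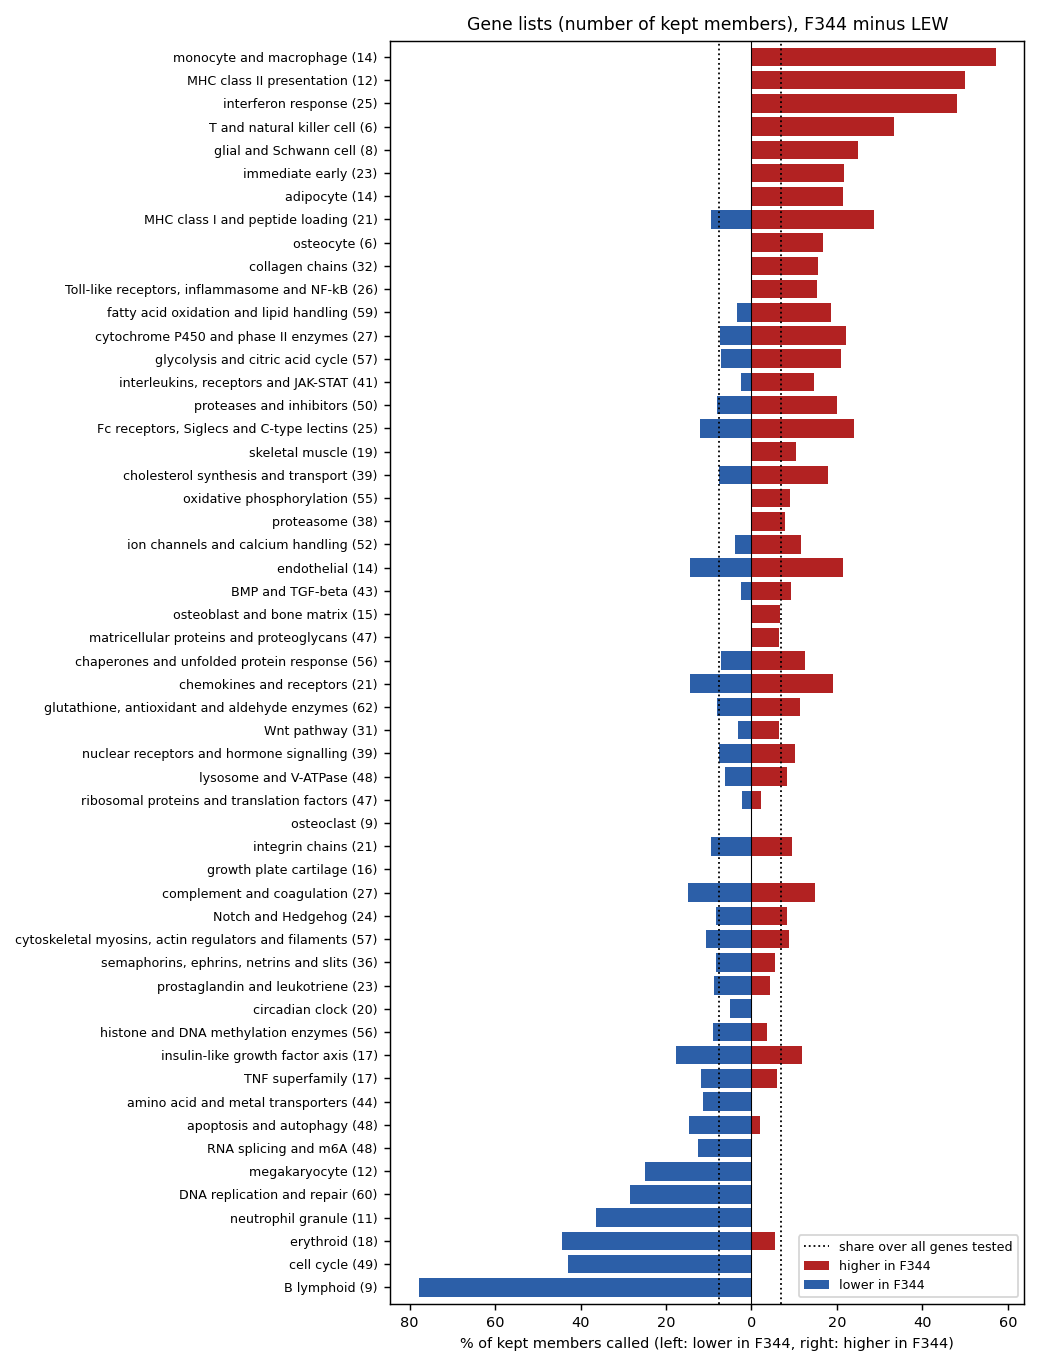
Share of the kept members of each gene list that were called higher (red, to the right) or lower (blue, to the left) in F344 than in LEW, in % of the kept members given in brackets. Dotted lines mark the 6.96% higher and 7.54% lower among all genes tested; macrophage, class II and interferon lists lie at the top and erythroid, cell cycle and B lymphoid lists at the bottom.

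Marrow lineages lay on both sides. B lymphoid genes with a named probe set, 9 of 18 listed, were mostly lower in F344: 0 of 9 kept members rose and 7 fell, with a median difference of -0.67. Vpreb3, of the surrogate light chain in B cell precursors, had signals of 885, 741, 1029 and 1139 in F344 and 4925, 4971, 5166 and 4824 in LEW (log2 difference -2.41, SE 0.13, limma adjusted p = 2.81e-11). Cd79b, the signalling chain of the B cell receptor, had 1183, 1287, 1281 and 1088 in F344 and 2192, 2265, 1913 and 2071 in LEW (log2 difference -0.80, SE 0.10, limma adjusted p = 7.87e-06). The strains did not overlap for either gene. The other falls were Fcrla (-0.82), an Fc receptor-like protein of B cells, the coactivator Pou2af1 (-0.79), the CD20 gene Ms4a1 (-0.67), the adaptor Blnk (-0.53) and the early B cell factor Ebf1 (-0.52). The list mean was -0.40 to -0.32 on the F344 arrays and 0.32 to 0.41 on the LEW arrays. The immunoglobulin gene Iglc1, above (1.44), and the Fc receptor-like gene Fcrl2, below (2.18), went the other way and were not in the list.

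Erythroid genes were lower too, where 1 of 18 kept members rose and 8 fell (rises numbered 0 without LEW replicate 3, and falls numbered 13 without LEW replicate 4), median -0.24. Beside Hba-a3, these were Hemgn (-0.51), a nuclear protein of red cell precursors, carbonic anhydrase Car1 (-0.48), the anion exchanger Slc4a1 (-0.38), the transcription factors Gata1 (-0.37) and Klf1 (-0.36), Rhag (-0.36) and Epb42 (-0.30) of the red cell membrane. Car1 had signals of 20980.5, 22571, 21605 and 21774 in F344 and 34069, 29128, 31046 and 27359 in LEW (log2 difference -0.48, SE 0.076, limma adjusted p = 0.000138). Its F344 arrays were all below its LEW arrays. The spectrin gene Sptb was the rise (0.50, limma adjusted p 0.0547 without LEW replicate 3). The list mean ran -0.20 to -0.11 on the F344 arrays and 0.006 to 0.28 on the LEW arrays.

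Of megakaryocyte genes, 0 of 12 kept members rose and 3 fell (falls numbered 7 without LEW replicate 4), median -0.26. Apart from Pf4 they were Tubb1, the tubulin of platelets, with signals of 3988, 3846, 3818 and 4013 in F344 and 6171, 5487, 7098 and 5645 in LEW (log2 difference -0.63, SE 0.095, limma adjusted p = 7.31e-05), and Treml1, a platelet granule receptor (-0.33, limma adjusted p 0.142 without LEW replicate 3). Of neutrophil granule genes, 0 of 11 kept members rose and 4 fell, median -0.21. By far the largest of these falls was that of Lcn2, above (-3.91). Camp, the precursor of cathelicidin, had signals of 11117, 11854, 10756 and 11184 in F344 and 17026, 14971, 14617 and 14244 in LEW (log2 difference -0.44, SE 0.056, limma adjusted p = 1.11e-05). Mmp8, neutrophil collagenase, averaged 1851 in F344 and 2389 in LEW (log2 difference -0.36), and Itgam, the alpha chain of complement receptor 3, differed by -0.54 (limma adjusted p 0.0789 without LEW replicate 3). The abundant S100a8 and S100a9, at 34750 to 37440 and 58730 to 64320 in F344 and at 36540 to 42110 and 60500.0 to 73560 in LEW, were not among the falls.

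Monocyte and macrophage genes were higher in F344, where 8 of 14 kept members rose and 0 fell, median 0.30; quantile normalization gave 8 higher and 1 lower, the lysozyme gene Lyz2 (-0.16). The macrophage marker Cd68, with signals of 4129 to 5057 in F344 and 4805 to 5997 in LEW, had the lowest difference of the list (-0.22, limma adjusted p = 0.0909). Fcgr3a, a low-affinity receptor for immunoglobulin G, had signals of 753, 719.7, 711 and 688 in F344 and 389, 332, 342 and 383 in LEW (log2 difference 0.99, SE 0.13, limma adjusted p = 2e-05). C1qb, a chain of complement C1q made by macrophages, had 3205, 3369, 3139.6 and 2986 in F344 and 2206, 2271, 2499 and 2614 in LEW (log2 difference 0.41, SE 0.069, limma adjusted p = 0.000277). The strains were apart for both. C1qa (0.33), C1qc (0.30), the high-affinity receptor Fcgr1a (0.40), the growth factor receptor Csf1r (0.30), Mertk (0.61), which takes up dying cells, and the endotoxin coreceptor Cd14 (0.39, limma adjusted p 0.0817 without F344 replicate 2) were the rest. The list mean was 0.082 to 0.17 on the F344 arrays and -0.18 to -0.069 on the LEW arrays. Among genes of T and natural killer cells, 2 of 6 kept members rose and 0 fell: Cd3g, of the T cell receptor complex, averaged 1742 ± 108 in F344 and 848 ± 62.6 in LEW (SD, n = 4 each, log2 difference 1.04, SE 0.14, limma adjusted p = 2.58e-05), and Il2rb, the beta chain of the interleukin-2 receptor, 259.6 in F344 and 128 in LEW (log2 difference 1.07). Cd3d and Cd3e, of the same complex as Cd3g, were below the filter.

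**Figure D5:**
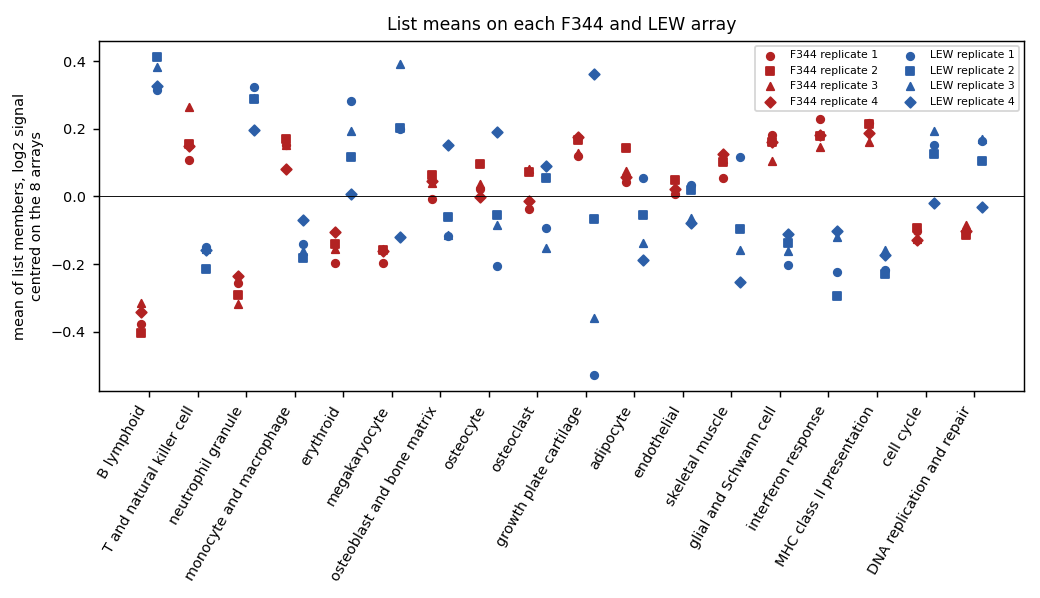
Mean of the kept members of each list, as log2 signal centred on the 8 arrays, on each F344 array (red) and each LEW array (blue); symbols mark the replicate number. F344 lies below LEW for B lymphoid, neutrophil, erythroid, megakaryocyte, cell cycle and replication lists and above it for macrophage, interferon and class II lists. The megakaryocyte gap is narrow, from -0.154 on the highest F344 array to -0.121 on LEW replicate 4. The part of single genes, such as Pf4 (-1.59) in the megakaryocyte list and Lcn2 (-3.91) in the neutrophil list, was not tested. LEW arrays run from -0.53 to 0.36 for cartilage.

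Interferon-response genes share a promoter element, the interferon-stimulated response element, to which IRF and STAT factors bind. Its core was searched as GAAANNGAAA on both strands in the 300 bases around each start site in RefSeq (250 before and 50 after, assembly GRCr8). It was found in 14 of 20 kept interferon members that have a promoter in the table (70.0%), in 7 of 9 of those called (77.8%), in 2.95% of 8812 tested genes and in 3.92% of all 33469 promoters. The promoters of the 4 called members with a match and the largest differences follow, to show where the core lies; capitals mark the match on either strand.
Irf7 (chr1:205799974-205800273, minus strand): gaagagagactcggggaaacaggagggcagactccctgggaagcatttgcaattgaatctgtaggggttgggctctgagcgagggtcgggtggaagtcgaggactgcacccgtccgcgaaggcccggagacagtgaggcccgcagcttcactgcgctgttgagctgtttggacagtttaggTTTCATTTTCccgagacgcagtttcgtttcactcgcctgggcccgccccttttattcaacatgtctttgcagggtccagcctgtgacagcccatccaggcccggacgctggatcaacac
Ifi27 (chr6:128355062-128355361, plus strand): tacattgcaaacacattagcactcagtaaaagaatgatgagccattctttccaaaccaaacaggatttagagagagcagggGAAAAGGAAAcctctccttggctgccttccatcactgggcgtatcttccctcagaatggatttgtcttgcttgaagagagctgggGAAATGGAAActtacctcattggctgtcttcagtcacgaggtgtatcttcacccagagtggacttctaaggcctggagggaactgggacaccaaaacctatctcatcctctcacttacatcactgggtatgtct
Igtp (chr10:42874797-42875096, plus strand): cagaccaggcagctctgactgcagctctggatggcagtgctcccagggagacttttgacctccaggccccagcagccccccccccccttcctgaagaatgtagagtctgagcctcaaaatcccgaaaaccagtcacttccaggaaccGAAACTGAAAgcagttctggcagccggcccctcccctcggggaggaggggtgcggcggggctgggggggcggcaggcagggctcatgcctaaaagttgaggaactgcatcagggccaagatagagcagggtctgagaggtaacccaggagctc
Gbp2 (chr2:234005477-234005776, plus strand): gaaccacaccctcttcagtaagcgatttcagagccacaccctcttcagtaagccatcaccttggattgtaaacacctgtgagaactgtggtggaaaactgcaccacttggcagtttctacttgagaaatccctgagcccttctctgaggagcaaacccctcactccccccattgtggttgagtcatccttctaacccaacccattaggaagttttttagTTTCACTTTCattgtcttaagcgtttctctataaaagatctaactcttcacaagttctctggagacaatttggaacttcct

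In the interferon list 12 of 25 kept members rose and 0 fell (10 to 12 rises with single arrays left out), and the list median was 0.35. Irf7, a transcription factor that amplifies type I interferon, had signals of 1495, 1569, 1721 and 1534 in F344 and 1041, 635, 811 and 913 in LEW (log2 difference 0.92, SE 0.17, limma adjusted p = 0.000689). Ifi27, an interferon-induced protein of mitochondria and the nuclear membrane, had 18121, 17124, 16527 and 17559.6 in F344 and 9500.4, 9335, 9122 and 10533 in LEW (log2 difference 0.85, SE 0.066, limma adjusted p = 7.37e-09). Both were higher on every F344 array. The immunity-related GTPase Igtp (0.73) and the guanylate-binding protein Gbp2 (0.59) have the same core in the promoters above, Irf7 at position -69 from the start site and Gbp2 at -31.

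Isg15, a ubiquitin-like protein joined to others after interferon, had signals of 815, 789, 773 and 751 in F344 and 487, 271, 409 and 404 in LEW (log2 difference 1.02, SE 0.20, limma adjusted p = 0.00141), and Usp18, the protease that removes it, 355, 468, 455 and 479 in F344 and 203, 250.5, 208 and 261 in LEW (log2 difference 0.93, SE 0.19, limma adjusted p = 0.00206). The remaining rises were Irf1 (0.78) and Mx1 (0.63), whose windows hold no such core, the RNA-activated kinase Eif2ak2 (0.58), tetherin Bst2 (0.55), Ifi44l (0.52) and Ifit2 (0.35). COP and DA were nearer to F344 for Irf7, at 2137 in COP and 1783 in DA, and for Isg15, at 1103 in COP and 778 in DA. List means were 0.15 to 0.23 on the F344 arrays and -0.29 to -0.10 on the LEW arrays. The macrophage list means given above separate the strains in the same direction, and their part in the interferon result was not tested.

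Histocompatibility genes moved strongly in both directions. RT1 class I genes are close copies that probe sets can share, and their alleles can differ between strains. In the list of class I and peptide loading, 6 of 21 kept members rose and 2 fell. RT1-T24-4, RT1-CE16 and RT1-A rose by 3.37, 2.89 and 2.61, and RT1-CE5 and RT1-T24-3 fell by 2.32 and 1.26. RT1-CE16 had signals of 1221, 1020.1, 1195 and 1039 in F344 and 184, 174, 97 and 164 in LEW, and RT1-CE5 of 377, 289.7, 246 and 417 in F344 and 1529, 1534, 1723 and 1722 in LEW. For RT1-A and RT1-CE5 the other strains were at 314 in COP and 224 in DA and at 298 in COP and 281 in DA, so RT1-A stood out in F344 and RT1-CE5 in LEW. The other class I rises were Nlrc5 (0.60), a transactivator of class I genes, the peptide trimming enzyme Erap1 (0.48) and the immunoproteasome subunit Psmb9 (0.39).

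In the list of class II presentation, 6 of 12 kept members rose and 0 fell, in the same numbers with each array left out, and 8 of 12 differences were above 0. The macrophage list means, above, separate the strains in the same direction, and their part in the class II result was not tested. RT1-Da, an alpha chain, had signals of 8087, 8007, 7689 and 8061 in F344 and 4005, 4216, 4165 and 4422 in LEW (log2 difference 0.92, SE 0.067, limma adjusted p = 2.19e-09). RT1-Ba had 2327, 2142, 2272 and 1875 in F344 and 894, 750.1, 980.0 and 1013 in LEW (log2 difference 1.25, SE 0.20, limma adjusted p = 0.000161). No F344 array overlapped a LEW array for either chain. RT1-Bb (0.89), RT1-Db1 (0.85), the invariant chain Cd74 (0.64) and cathepsin S, Ctss (0.25), which trims it, were the others. COP was the lowest strain for RT1-Da, with means of 2648 in COP and 4604 in DA. The other kept probe set of RT1-Db1 was not called.

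In the list of Fc receptors, Siglecs and C-type lectins, 6 of 25 kept members rose and 3 fell. Siglec5, a sialic acid-binding receptor, had signals of 918, 853, 713 and 824 in F344 and 141, 135, 102 and 168 in LEW (log2 difference 2.62, SE 0.14, limma adjusted p = 2.26e-11), and Fcrl2, an Fc receptor-like protein, 1101, 874, 1029.9 and 969 in F344 and 164, 168, 269.8 and 309 in LEW (log2 difference 2.18, SE 0.19, limma adjusted p = 5.19e-08). LEW was low throughout for both, and DA joined it for Fcrl2, at 785 in COP and 257 in DA. Among chemokines and their receptors, 4 of 21 kept members rose and 3 fell. Beside Cxcl9, Cxcl16, a membrane-bound chemokine, averaged 1044 ± 131 in F344 and 487 ± 59.7 in LEW (SD, n = 4 each, log2 difference 1.10, SE 0.13, limma adjusted p = 4.13e-06), Ccl5 368 in F344 and 177 in LEW (log2 difference 1.06), and Ccl9, a myeloid chemokine of rodents, 1117 in F344 and 2066 in LEW (log2 difference -0.86).

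Among interleukins, their receptors and JAK-STAT members, 6 of 41 kept members rose and 1 fell (falls numbered 0 without F344 replicate 2 or LEW replicate 2 or 3, 2 without F344 replicate 4 or LEW replicate 4). Socs2, which restrains growth hormone signalling, averaged 203 in F344 and 102 in LEW (log2 difference 1.05), and the interleukin-4 receptor chain Il4r 513 in F344 and 365 in LEW (0.49); falls numbered 2 under quantile normalization, and the fall with the values as deposited was Stat5b (-0.54, limma adjusted p 0.104 without F344 replicate 1). In the TNF superfamily, 1 of 17 kept members rose and 2 fell (falls numbered 1 without F344 replicate 2, 3 or 4 or LEW replicate 2 or 3). Tnfsf10, the death ligand TRAIL, had signals of 299, 289.5, 385 and 284 in F344 and 145, 133, 185 and 98.6 in LEW (log2 difference 1.19, SE 0.20, limma adjusted p = 0.000347). Tnfrsf14 fell by 0.35, and the other fall, lymphotoxin beta Ltb (-0.35), was not called without LEW replicate 3 (limma adjusted p 0.0983). Among Toll-like receptors, inflammasome and NF-kB genes, 4 of 26 kept members rose and 0 fell (rises numbered 2 without F344 replicate 2 or LEW replicate 1 or 3), with the inflammasome adaptor Pycard at 2288 ± 94.1 in F344 and 1599.8 ± 71.6 in LEW (SD, n = 4 each, log2 difference 0.52, SE 0.065, limma adjusted p = 9.06e-06) and the kinase Ripk2 at 0.36. Irak2 (0.53; limma adjusted p 0.141 without LEW replicate 3) and Cd14, above, were the others.

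Genes of dividing cells were lower in F344. Many of them carry a cell cycle homology region, TTTGAA, and CCAAT boxes near the start site, through which the DREAM complex and NF-Y act. In the same 300 bases, with both strands searched, TTTGAA was in 22 of 40 kept cell cycle members with a promoter sequence (55.0%). It was in 11 of 18 of those called (61.1%), 11.3% of tested genes and 18.3% of all promoters. CCAAT was in 28 of 40 (70.0%), 12 of 18 of those called (66.7%), 38.0% of tested genes and 37.5% of all promoters. Both motifs can share their end bases. The 3 called members with both motifs and the largest differences are shown, with either match in capitals.
Ttk (chr8:93634389-93634688, plus strand): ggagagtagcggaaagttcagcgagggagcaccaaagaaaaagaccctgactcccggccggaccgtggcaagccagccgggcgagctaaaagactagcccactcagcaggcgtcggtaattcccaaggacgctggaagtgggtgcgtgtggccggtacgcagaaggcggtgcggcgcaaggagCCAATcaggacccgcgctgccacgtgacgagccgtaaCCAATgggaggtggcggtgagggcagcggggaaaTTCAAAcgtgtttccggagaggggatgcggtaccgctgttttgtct
Cks2 (chr17:13727470-13727769, minus strand): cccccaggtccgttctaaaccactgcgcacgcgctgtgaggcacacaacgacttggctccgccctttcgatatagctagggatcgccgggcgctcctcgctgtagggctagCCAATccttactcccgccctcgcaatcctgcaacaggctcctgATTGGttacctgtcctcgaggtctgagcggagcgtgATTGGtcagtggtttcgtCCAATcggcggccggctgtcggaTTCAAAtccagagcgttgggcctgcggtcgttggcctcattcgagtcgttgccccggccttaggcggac
Top2a (chr10:84473044-84473343, minus strand): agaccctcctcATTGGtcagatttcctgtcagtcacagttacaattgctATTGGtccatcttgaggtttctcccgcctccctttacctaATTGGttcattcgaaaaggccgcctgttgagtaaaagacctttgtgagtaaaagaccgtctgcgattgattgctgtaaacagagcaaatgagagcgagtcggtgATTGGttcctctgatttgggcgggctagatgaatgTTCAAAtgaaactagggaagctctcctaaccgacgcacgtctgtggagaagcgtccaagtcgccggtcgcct

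Of cell cycle genes, 0 of 49 kept members rose and 21 fell (14 falls without LEW replicate 3 and 26 without LEW replicate 4), median -0.21. Aurkb, the mitotic kinase aurora B, had signals of 2009, 2049, 1875 and 1890.0 in F344 and 3529, 3579, 3791 and 3352 in LEW (log2 difference -0.86, SE 0.083, limma adjusted p = 1.68e-07). Ttk, a kinase of the spindle checkpoint, had 1316, 1117, 1223 and 1211 in F344 and 2171, 2062, 2195 and 1508 in LEW (log2 difference -0.69, SE 0.095, limma adjusted p = 2.4e-05). The 4 F344 arrays lay below the 4 LEW arrays for both, and LEW replicate 4 was the lowest LEW array for Ttk. Cks2, a small subunit of cyclin-dependent kinases, had 10076, 12112, 12149 and 11285 in F344 and 16642, 15861, 15431 and 14877 in LEW (log2 difference -0.46, SE 0.067, limma adjusted p = 4.78e-05). Kif2c, a kinesin that takes apart microtubules, fell by 0.47, topoisomerase Top2a by 0.42, Bub1b by 0.44, Plk1 by 0.28 and the proliferation marker Mki67 by 0.24. E2f2, above, went the other way and was not in the list.

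In DNA replication and repair, 0 of 60 kept members rose and 17 fell (falls numbered 9 without LEW replicate 3, 10 without LEW replicate 1, 28 without LEW replicate 4), median -0.23. Tyms, thymidylate synthase, had signals of 1253, 1285, 1359 and 1301 in F344 and 2378, 2278, 2591 and 2201 in LEW (log2 difference -0.86, SE 0.08, limma adjusted p = 1.11e-07). The clamp loader Rfc4 averaged 4569 in F344 and 5726 in LEW (log2 difference -0.32), the mismatch repair gene Msh6 1359 in F344 and 1819.9 in LEW (-0.41) and the recombination gene Xrcc3 193 in F344 and 309.6 in LEW (-0.69). The clamp Pcna (-0.24) and the helicase subunit Mcm7 (-0.26) were among the smaller falls. The list means of erythroid, B lymphoid and neutrophil genes were lower in F344 as well, and on LEW replicate 4 both the erythroid mean (0.006) and the cell cycle mean (-0.019) were the lowest of the LEW arrays. The part of marrow cell numbers in the cell cycle result was not tested.

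Genes of bone cells and cartilage gave few calls. Of osteoblast and bone matrix genes, 1 of 15 kept members rose and 0 fell (rises numbered 0 without F344 replicate 1 or 2 or LEW replicate 1, 2 or 3, 5 without LEW replicate 4, and falls numbered 1 without LEW replicate 1), median 0.062; the rise was Phospho1 (0.27), a phosphatase that starts mineral formation. Of osteocyte genes, 1 of 6 kept members rose and 0 fell (rises numbered 0 without F344 replicate 2), which was the pyrophosphate transporter Ankh (0.32). Of osteoclast genes 0 of 9 kept members rose and 0 fell (rises numbered 1 without LEW replicate 4, falls numbered 1 without LEW replicate 1, and 0 higher and 1 lower under median centring), and of growth plate cartilage genes 0 of 16 kept members rose and 0 fell (rises numbered 6 without LEW replicate 4), median 0.29. Their largest differences were those of the osteoclast factor Nfatc1 (0.24, limma adjusted p = 0.0912, or 0.0483 with the 8 arrays fitted alone) and of matrilin-1, Matn1, with signals of 381, 415, 434 and 402 in F344 and 107, 222, 226 and 594 in LEW (log2 difference 0.78, limma adjusted p = 0.145). The LEW arrays of Matn1 spread to both sides of all F344 arrays. Its difference was 1.22 without LEW replicate 4 and 0.39 without LEW replicate 1, and it was called without LEW replicate 4 (limma adjusted p = 0.00349) and with array weights (limma adjusted p = 0.0403).

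Among collagen chains 5 of 32 kept members rose and 0 fell (rises numbered 3 without F344 replicate 2 or LEW replicate 1, 2 or 3, 10 without LEW replicate 4, and falls numbered 1 without F344 replicate 4 or LEW replicate 1), and 4 higher and 1 lower under median centring. Col15a1, of vascular and muscle basement membranes, had signals of 6559, 6671, 6096 and 6315 in F344 and 5426, 5427, 4799 and 5343 in LEW (log2 difference 0.29, SE 0.058, limma adjusted p = 0.00146), and Col4a1, of basement membranes in general, 8879.9, 9599, 8771 and 8859 in F344 and 8267, 7505, 6349 and 6862 in LEW (log2 difference 0.32, SE 0.078, limma adjusted p = 0.00708). Another kept probe set was called the same way for each. Col14a1 (0.23, limma adjusted p 0.0595 without LEW replicate 3), Col24a1 (0.35) and Col22a1 (0.26) were the other rises. Among matricellular proteins and proteoglycans, 3 of 47 kept members rose and 0 fell (rises numbered 8 without LEW replicate 4): Ccn1, Sparcl1, a relative of osteonectin, at 8028 ± 335 in F344 and 5784 ± 792 in LEW (SD, n = 4 each, log2 difference 0.48, SE 0.078, limma adjusted p = 0.000172), and the glypican Gpc4 (0.33, limma adjusted p 0.0934 without F344 replicate 1).

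Among integrin chains, 2 of 21 kept members rose and 2 fell (rises numbered 4 without LEW replicate 4, and falls numbered 1 without F344 replicate 2 or LEW replicate 3). Itgal, the alpha chain of the leukocyte integrin LFA-1, had signals of 763, 811, 766 and 832 in F344 and 89, 128, 78 and 118 in LEW (log2 difference 2.97, SE 0.15, limma adjusted p = 6.37e-12). Itgax, the alpha chain of complement receptor 4, fell, with 1212, 1311, 1285 and 1141 in F344 and 2519.9, 2319, 2815 and 2398 in LEW (log2 difference -1.02, SE 0.08, limma adjusted p = 8.5e-09). The arrays of the strains were wholly apart for both. Among proteases and their inhibitors, 10 of 50 kept members rose and 4 fell (falls numbered 2 without F344 replicate 2 or 3 or LEW replicate 2 or 3). The aminopeptidase Anpep averaged 2372 ± 213 in F344 and 1372 ± 105 in LEW (SD, n = 4 each, log2 difference 0.79, SE 0.09, limma adjusted p = 2.17e-06), Timp1, an inhibitor of matrix metalloproteinases, 14775 ± 208 in F344 and 10917 ± 2082 in LEW (SD, n = 4 each, log2 difference 0.45, SE 0.10, limma adjusted p = 0.00424) and cathepsin C, Ctsc, 3490.1 in F344 and 2643 in LEW (0.40). A second kept probe set of Ctsc was called the opposite way.

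Among genes of the insulin-like growth factor axis 2 of 17 kept members rose and 3 fell. Igf1, which drives growth of bone and muscle, had signals of 8214, 7883, 7845 and 7106 in F344 and 11687, 13305, 14394 and 14689 in LEW (log2 difference -0.80, SE 0.081, limma adjusted p = 4.06e-07). Every F344 array was below every LEW array, and both other kept probe sets were called the same way. COP and DA were at the F344 level, with 8025 in COP and 7099 in DA. Igfbp4, which binds Igf1, averaged 777 in F344 and 1141 in LEW (log2 difference -0.55). Among BMP and TGF-beta genes, 4 of 43 kept members rose and 1 fell (rises numbered 2 without F344 replicate 1 or LEW replicate 3, 8 without LEW replicate 4). Bmp3, an inhibitory bone morphogenetic protein abundant in bone, had signals of 441, 349, 608 and 493 in F344 and 728, 985, 991 and 1548 in LEW (log2 difference -1.14, SE 0.18, limma adjusted p = 0.000152). The receptor Tgfbr1 averaged 5116 ± 276 in F344 and 3906 ± 658 in LEW (SD, n = 4 each, log2 difference 0.40, SE 0.089, limma adjusted p = 0.00368; its other kept probe set, not called, was at -0.24), while follistatin, Fst (0.40, limma adjusted p 0.0746 without F344 replicate 1), and Smad3 (0.30, limma adjusted p 0.0833 without LEW replicate 3) were less stable.

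In the Wnt pathway, 2 of 31 kept members rose and 1 fell (rises numbered 1 without F344 replicate 1, 2, 3 or 4 or LEW replicate 1, 2 or 3), with 1 rise under median centring and under quantile normalization. The transcription factor Tcf7 averaged 1048 ± 70.2 in F344 and 688 ± 134 in LEW (SD, n = 4 each, log2 difference 0.63, SE 0.14, limma adjusted p = 0.00324), and its relative Lef1 went the other way at 1434 ± 124 in F344 and 2167 ± 19 in LEW (SD, n = 4 each, log2 difference -0.60, SE 0.085, limma adjusted p = 3.76e-05). The decoy receptor Sfrp5 (0.71) lost its call with arrays left out (limma adjusted p 0.177 without LEW replicate 3). Sema4b, a semaphorin, averaged 1646 ± 215 in F344 and 2746 ± 196 in LEW (SD, n = 4 each, log2 difference -0.74, SE 0.11, limma adjusted p = 7.5e-05), and the netrin receptor Unc5b 1313 in F344 and 1004 in LEW (0.39). Among immediate early genes, 5 of 23 kept members rose and 0 fell (rises numbered 3 without F344 replicate 1 or LEW replicate 1, and falls numbered 1 without LEW replicate 4), with Fos at 2430.0 ± 92.5 in F344 and 1352 ± 520 in LEW (SD, n = 4 each, log2 difference 0.92, SE 0.19, limma adjusted p = 0.00255) and Ier3 at 3394 ± 169 in F344 and 1915 ± 260 in LEW (SD, n = 4 each, log2 difference 0.83, SE 0.11, limma adjusted p = 1.59e-05).

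Counts of energy metabolism genes depended on single arrays. The list means of oxidative phosphorylation, of glycolysis and of fatty acid oxidation overlapped between the strains, since LEW replicate 1, at 0.096, 0.082 and 0.12, was above every F344 array while the other LEW arrays were below them all. Of oxidative phosphorylation genes, 5 of 55 kept members rose and 0 fell (rises numbered 3 without F344 replicate 1, 2, 3 or 4 or LEW replicate 3 or 4, 16 without LEW replicate 1), median 0.14, and 49 of 55 differences were above 0. Quantile normalization gave 10 rises and median centring 3. Ndufb8, a subunit of complex I, averaged 2683 ± 382 in F344 and 1762 ± 227 in LEW (SD, n = 4 each, log2 difference 0.60, SE 0.13, limma adjusted p = 0.00251), Ndufa2 9224 in F344 and 7613 in LEW (0.28) and Ndufa6 11536 in F344 and 9684 in LEW (0.25). Of glycolysis and citric acid cycle genes, 12 of 57 kept members rose and 4 fell (rises numbered 5 without LEW replicate 3, 6 without F344 replicate 3, 7 without F344 replicate 2 or LEW replicate 2, 19 without LEW replicate 1, and falls numbered 2 without F344 replicate 3 or LEW replicate 1), with 6 higher and 4 lower under median centring and 17 higher and 4 lower under quantile normalization. Pfkfb3, which makes an activator of phosphofructokinase, had signals of 1021, 835, 920.5 and 958 in F344 and 464, 611, 444 and 649 in LEW (log2 difference 0.80, SE 0.13, limma adjusted p = 0.000254). Cytosolic isocitrate dehydrogenase Idh1 averaged 5896 ± 260 in F344 and 4458 ± 146 in LEW (SD, n = 4 each, log2 difference 0.40, SE 0.052, limma adjusted p = 1.25e-05), and the lactate transporter Slc16a1 7689 ± 605 in F344 and 10343 ± 972 in LEW (SD, n = 4 each, log2 difference -0.43, SE 0.068, limma adjusted p = 0.000151).

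Of fatty acid oxidation and lipid handling genes, 11 of 59 kept members rose and 2 fell (rises numbered 6 without F344 replicate 3, 18 without LEW replicate 1). Acaa2, the mitochondrial thiolase, had signals of 6177, 6231, 6274 and 6209 in F344 and 4106, 3382, 3416 and 2720.4 in LEW (log2 difference 0.88, SE 0.12, limma adjusted p = 1.36e-05). Acadsb, a dehydrogenase of short branched acyl-CoA, fell, with 239, 277, 268 and 219 in F344 and 603, 631, 532 and 562 in LEW (log2 difference -1.22, SE 0.13, limma adjusted p = 7.18e-07). The very long chain dehydrogenase Acadvl (0.38), the long chain one, Acadl (0.36), and the muscle fatty acid carrier Fabp3 (0.58) rose. The muscle list mean was 0.056 to 0.12 on the F344 arrays and -0.25 to 0.12 on the LEW arrays, and of muscle genes 2 of 19 kept members rose and 0 fell (rises numbered 1 without F344 replicate 1, 2, 3 or 4 or LEW replicate 2, 3 or 4, 6 without LEW replicate 1) and 1 rose under median centring, with Myh4, a fast myosin, at 29171 ± 1459 in F344 and 18365 ± 802 in LEW (SD, n = 4 each, log2 difference 0.67, SE 0.096, limma adjusted p = 4.76e-05). The part of muscle tissue in the metabolic counts was not tested.

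In cholesterol synthesis and transport, 7 of 39 kept members rose and 3 fell (rises numbered 4 without F344 replicate 1, 2, 3 or 4 or LEW replicate 2 or 3), and 4 higher and 3 lower under median centring. The synthetic enzymes Cyp51 (0.50), Msmo1 (0.48), Hsd17b7 (0.45) and Idi1 (0.31) rose with the carrier Apoe (0.47). Abca1, which exports cholesterol, had signals of 574, 507, 563 and 656 in F344 and 2356, 3073, 2749.8 and 3106 in LEW on its brightest probe set (log2 difference -2.29, SE 0.11, limma adjusted p = 3.47e-12). Of its other kept probe sets 1 was called the same way, 1 the opposite way and 1 was not called. Osbpl3, an oxysterol-binding protein, averaged 272 in F344 and 549.6 in LEW (-1.03), and its other kept probe set was not called.

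Of cytochrome P450 and phase II genes, 6 of 27 kept members rose and 2 fell, with the carboxylesterase Ces1d at 948 in F344 and 533 in LEW (0.83) and monoamine oxidase Maoa at 1370.5 in F344 and 924 in LEW (0.57). Of glutathione, antioxidant and aldehyde enzymes, 7 of 62 kept members rose and 5 fell (rises numbered 4 without F344 replicate 1 or LEW replicate 3, and falls numbered 3 without LEW replicate 1). Nqo2, a quinone reductase, had signals of 1466, 1314, 1343 and 1299 in F344 and 648, 732, 637 and 673 in LEW (log2 difference 1.01, SE 0.099, limma adjusted p = 2.26e-07). It was high in F344 alone, with 666 in COP and 703 in DA. Gstm1 (-0.51) and Akr7a3 (-0.49) fell.

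Among chaperones and the unfolded protein response, 7 of 56 kept members rose and 4 fell (falls numbered 2 without LEW replicate 1). Beside Hyou1, Chac1, which degrades glutathione and is induced by Atf4, averaged 1165 ± 147 in F344 and 599 ± 148 in LEW (SD, n = 4 each, log2 difference 0.99, SE 0.16, limma adjusted p = 0.000161), and the pseudokinase Trib3 340.2 in F344 and 191 in LEW (0.83). Of histone and DNA methylation enzymes, 2 of 56 kept members rose and 5 fell. Setd1b, a histone H3 lysine 4 methyltransferase, had signals of 133, 134, 279 and 177 in F344 and 1907, 2168, 1839 and 1764 in LEW (log2 difference -3.47, SE 0.16, limma adjusted p = 2.54e-12). Dnmt1, the maintenance DNA methyltransferase, averaged 2599 ± 182 in F344 and 3811 ± 454 in LEW (SD, n = 4 each, log2 difference -0.55, SE 0.084, limma adjusted p = 9.94e-05), in the opposite direction to Uhrf1, and Ezh2, of Polycomb, 3126 ± 137 in F344 and 3986 ± 398 in LEW (SD, n = 4 each, log2 difference -0.35, SE 0.074, limma adjusted p = 0.00296). Of splicing and N6-methyladenosine genes, 0 of 48 kept members rose and 6 fell (rises numbered 1 without F344 replicate 1, and falls numbered 3 without F344 replicate 3 or LEW replicate 3), with the splicing factor Srsf1 at 7688 ± 474 in F344 and 10079 ± 115 in LEW (SD, n = 4 each, log2 difference -0.39, SE 0.049, limma adjusted p = 7.94e-06). Of ribosomal protein and translation factor genes 1 of 47 kept members rose and 1 fell, and the fall, Rpl19 (-0.17), was lost with any single array left out; the rise was Eif3c (0.33). Rises numbered 2 without LEW replicate 1, and falls numbered 3 under quantile normalization and 2 under median centring.

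Of amino acid and metal transporters, 0 of 44 kept members rose and 5 fell (rises numbered 2 without LEW replicate 4, and falls numbered 3 without LEW replicate 1 or 3). Slc3a1, the heavy subunit of a cystine transporter, had signals of 202, 219.6, 169 and 206 in F344 and 1314, 1381, 1509 and 1272 in LEW (log2 difference -2.78, SE 0.099, limma adjusted p = 2.88e-14). F344 stood alone, with COP and DA at 1249 and 1197. Of ion channels and calcium handling genes, 6 of 52 kept members rose and 2 fell. P2rx4, an ATP-gated channel, averaged 1549 ± 116 in F344 and 936 ± 73.9 in LEW (SD, n = 4 each, log2 difference 0.73, SE 0.089, limma adjusted p = 5.33e-06), and the sodium channel subunit Scn4b 4993 in F344 and 3338 in LEW (0.60). Among nuclear receptors and hormone signalling genes, 4 of 39 kept members rose and 3 fell (rises numbered 2 without F344 replicate 1, 3 or 4 or LEW replicate 2), with the retinoid receptor Rxrg at 0.67 and Ramp3, a partner of the calcitonin receptor family, at -0.64.

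Of lysosome and V-ATPase genes, 4 of 48 kept members rose and 3 fell (rises numbered 2 without F344 replicate 1 or 3 or LEW replicate 2 or 3, 7 without LEW replicate 4), and 2 higher and 3 lower under median centring. Neu1, lysosomal sialidase, encoded within the histocompatibility region, had signals of 669, 836, 657 and 1063 in F344 and 1423, 1522, 1422 and 1614 in LEW (log2 difference -0.92, SE 0.14, limma adjusted p = 7.66e-05), and a second probe set was called the same way. Tpp1, a lysosomal peptidase, averaged 5228 ± 263 in F344 and 3729 ± 75 in LEW (SD, n = 4 each, log2 difference 0.49, SE 0.069, limma adjusted p = 4.18e-05). Of apoptosis and autophagy genes, 1 of 48 kept members rose and 7 fell (rises numbered 0 without F344 replicate 1 or 2 or LEW replicate 1 or 3, and falls numbered 3 without LEW replicate 3, 4 without F344 replicate 1, 2 or 3 or LEW replicate 1 or 2), with Wipi2, of autophagosome formation, at 910.4 ± 95.1 in F344 and 1541 ± 270 in LEW (SD, n = 4 each, log2 difference -0.75, SE 0.11, limma adjusted p = 7.57e-05) and Casp6 at -0.41. In the prostaglandin and leukotriene list Alox12, platelet lipoxygenase, averaged 598 ± 29 in F344 and 1124 ± 192 in LEW (SD, n = 4 each, log2 difference -0.90, SE 0.10, limma adjusted p = 1.84e-06). Among cytoskeletal genes Myo5c, an unconventional myosin, averaged 5486 in F344 and 10851 in LEW (-0.98) with another probe set called the same way, against 7436 in COP and 64.8 in DA.

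On chromosome 4, 104 of 606 genes were called, or 17.2%, 51 higher and 53 lower in F344, and 6 of them changed 2-fold or more. The share called ran from 11.2% on chromosome 9 to 21.1% on chromosome 17 over the autosomes and X, so other chromosomes had shares on either side of that on chromosome 4. The largest difference was that of Klhl42, an adaptor of a ubiquitin ligase, with signals of 318, 235, 329.7 and 371 in F344 and 1539, 1781, 1502 and 1505 in LEW (log2 difference -2.35, SE 0.13, limma adjusted p = 2.99e-11). COP stood with F344 and DA with LEW, at 351 in COP and 1648 in DA, and its other kept probe set was not called. Akr1b8, an aldo-keto reductase, had 1010.0, 1099, 1037 and 1118 in F344 and 345, 521, 396 and 482 in LEW (log2 difference 1.31, SE 0.15, limma adjusted p = 1.48e-06), with COP and DA like LEW at 454 in COP and 306 in DA.

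Smaller differences on chromosome 4 included that of P3h3, a member of the prolyl 3-hydroxylase family that acts with collagen lysyl hydroxylation, with signals of 2431, 2530.2, 2599.6 and 2619 in F344 and 1472, 1607, 1133 and 2138 in LEW (log2 difference 0.72, SE 0.12, limma adjusted p = 0.000361). Reln, the secreted protein reelin, had 652, 614, 622 and 629 in F344 and 1183, 873, 1058 and 926 in LEW (log2 difference -0.67, SE 0.11, limma adjusted p = 0.000132). Retsat, which saturates retinol, had 2175, 2416, 2299.7 and 2146 in F344 and 4234, 3664, 3265 and 3287 in LEW (log2 difference -0.67, SE 0.086, limma adjusted p = 1.13e-05). For P3h3 LEW was the low strain, with COP and DA at 2349 and 2351, whereas for Reln and Retsat F344 was the low strain, with COP and DA at 1065 and 1117 for Reln. Npy, neuropeptide Y, which restrains bone formation in mice, averaged 4036 ± 218 in F344 and 6402 ± 1099 in LEW (SD, n = 4 each, log2 difference -0.65, SE 0.11, limma adjusted p = 0.000323). Dnajb6, a co-chaperone, averaged 4227 ± 148 in F344 and 7240.3 ± 308 in LEW (SD, n = 4 each, log2 difference -0.78, SE 0.075, limma adjusted p = 1.9e-07).

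Also higher in F344 on chromosome 4 were Inmt (1.25), a methyltransferase, Actr3b (1.08), an actin-related protein, Antxr1 (0.80), a collagen-binding receptor, Gimap4 (0.78), the protease inhibitor A2m (0.72), the lectin-like Clec2l (0.69) and the cholesterol enzyme Cyp51, above. Lower were Nom1 (-1.09), a nucleolar protein, whose second probe set was called the same way, Fscn3 (-0.70), a fascin, the centrosomal Cep41 (-0.69), with 2 other kept probe sets not called, and the RNA-binding Igf2bp3 (-0.66). Zfp956 (-0.88) lost its call in 2 of the 8 fits that left out 1 array, with a limma adjusted p of 0.0671 without F344 replicate 3.

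Elsewhere, the leading genes of chromosomes not yet named were Akr1c15 on chromosome 17, an aldo-keto reductase, with 1201 ± 62 in F344 and 571 ± 126 in LEW (SD, n = 4 each, log2 difference 1.10, SE 0.16, limma adjusted p = 7.29e-05), Spg7 on chromosome 19, a protease of the inner mitochondrial membrane, with 1300.1 ± 70.9 in F344 and 635 ± 41.7 in LEW (SD, n = 4 each, log2 difference 1.03, SE 0.12, limma adjusted p = 4.11e-06), and Uggt2 on chromosome 15, of glycoprotein folding, with 513 ± 43.1 in F344 and 942 ± 150 in LEW (SD, n = 4 each, log2 difference -0.87, SE 0.11, limma adjusted p = 1.62e-05). The other kept probe set of Spg7 was not called. Tested genes that were neighbours in the order of their RefSeq starts and were all called formed 2 runs of 5. On chromosome 17 the run was Serpinb6a (0.61), Nqo2 (1.01), Serpinb9 (-0.35), Serpinb6b (0.62) and Serpinb1a (0.33), in which the serpins inhibit intracellular proteases and are near copies of each other. On chromosome 3 it was Cntrl (0.25), Rab14 (1.01), Gsn (0.19), Stom (-0.28) and Ggta1 (-0.41). Both runs hold genes of either direction.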

How the data were processed

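Total RNA of the proximal femur was hybridised as biotin-labelled cRNA to 1-colour Affymetrix rat arrays, 4 per strain, per the labels' protocols. The deposited intensity of each probe set is a linear MAS5 signal, according to the submitters' processing notes (per the labels); its version and scaling target are not given in the sources used here. Trimmed means of 996 to 997 per array show scaling by the authors, which sets each array's level but not its shape.

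Of 31099 probe sets, 57 controls were left out. Of the rest, 20826 had 1 symbol in the platform annotation, 436 had several and 9780 had none; 20758 matched RefSeq genes of assembly GRCr8, which gave chromosomes and promoters. No array build was given, so genes were ordered along chromosomes by their RefSeq starts in GRCr8. Signals below 1 (255 values) were set to 1 and log2 was taken. Probe sets whose mean log2 lay below the 40th percentile (signal 173.5) were dropped, leaving 18625, and each gene took its brightest. limma 3.58.1 (R 4.3.3) fitted 1 mean per strain to 16 arrays (12 residual degrees of freedom, intensity trend), with two-sided Benjamini-Hochberg adjusted p-values at 0.05. In simulated data for F344 minus LEW with 18625 probe sets it recovered 55.5% of log2 changes of 0.5 and 92.5% of changes of 1. Of its calls there, 3.61% were false. The simulated noise was normal and independent between probe sets, and far fewer probe sets were changed than the 13.8% called here. Recovery in the real data can therefore differ.

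Named genes, by a rule: those called without overlap between arrays with the 30 largest rises and falls, the 20 largest on chromosome 4, the largest per chromosome, up to 4 per list, 12 with the smallest p among genes of signal 1000 or more, and genes with 3 or more probe sets called alike. Other called members of the lists were named after their values were seen. The 54 lists and the rule were chosen with earlier results of these data known. Replicate numbers did not pair the strains (correlations of same-numbered deviations were -0.026 to -0.0012). Alternatives were quantile normalization, median centring, other filters, a pseudocount of 16, other moderation, array weights, the mean of probe sets, the 8 arrays alone, a replicate block and leaving out each array. Figures used matplotlib 3.10.9.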

Additional observations from a re-analysis of the deposited data

Results flagged for a closer look

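Single arrays stood far from the other 3 of their strain for 18 genes, out of 406 sets of 4 arrays examined, where chance gives about 1 in 20. The 18 are no more than that share. They are listed as a description and do not mark a gene or an array as unusual. Ankh had a signal of 2184 on LEW replicate 1, below the 2546 to 2612 of the other LEW arrays. For Col15a1, LEW replicate 3 was at 4799, below a range of 5343 to 5427 on the others of that strain. On F344 replicate 2 the signal of Col4a1 was 9599, above the remaining F344 values of 8771 to 8879.9. Cxcl9 had a signal of 351 on LEW replicate 4, above the 235 to 251 of the other LEW arrays. For Ifitm1, F344 replicate 2 was at 6887, above a range of 5887 to 5969.7 on the others of that strain. On LEW replicate 2 the signal of Klhl42 was 1781, above the remaining LEW values of 1502 to 1539. Ltb had a signal of 794 on LEW replicate 3, above the 715 to 721 of the other LEW arrays. For Msmo1, F344 replicate 4 was at 1431, below a range of 1658 to 1667 on the others of that strain. On LEW replicate 1 the signal of Pycard was 1707, above the remaining LEW values of 1557 to 1572. Rab14 had a signal of 12331 on F344 replicate 1, above the 10751 to 10999.6 of the other F344 arrays. For Slc14a1, F344 replicate 1 was at 464, below a range of 560.1 to 562 on the others of that strain. On F344 replicate 1 the signal of Slc16a1 was 6789.9, below the remaining F344 values of 7888 to 8091. Tgfbr1 had a signal of 4885 on LEW replicate 4, above the 3479 to 3680.3 of the other LEW arrays. For Tnfsf10, F344 replicate 3 was at 385, above a range of 284 to 299 on the others of that strain. On LEW replicate 1 the signal of Tpp1 was 3618, below the remaining LEW values of 3752 to 3774. Ttk had a signal of 1508 on LEW replicate 4, below the 2062 to 2195 of the other LEW arrays. For Usp18, F344 replicate 1 was at 355, below a range of 455 to 479 on the others of that strain. On LEW replicate 4 the signal of Ythdf2 was 7506, above the remaining LEW values of 6449 to 6488. LEW replicate 4 and F344 replicate 1 held 4 of these values each, LEW replicate 1 held 3, LEW replicate 3 and F344 replicate 2 held 2 each, and LEW replicate 2, F344 replicate 3 and F344 replicate 4 held 1 each. The calls of Ankh and Ltb were lost when single arrays were left out, as given above.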

How the results depend on the processing

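The number of genes called between F344 and LEW was 1529 and stayed within 1.5 times of that under every alternative run, from 1098 without LEW replicate 3 to 1704 without LEW replicate 4 among the fits that left out 1 array. Probe sets called ran from 1907 to 2786 and chromosome 4 genes from 74 to 120 with an array left out, against 2567 and 104. Of the 1529 genes, 1051 were still called without LEW replicate 3, 1376 under median centring, 1477 under quantile normalization and 1317 with probe sets of a gene averaged. The 8 arrays of F344 and LEW fitted alone gave 730 genes higher and 717 lower, and 1315 of the 1529 were still called. Median centring changed the balance to 584 higher and 867 lower, or 40.2% higher against 48.0% for the values as deposited, and the median difference of all genes was 0.012 as deposited, -0.01 under median centring and 0.01 under quantile normalization. With the replicate number as a block, 677 genes were higher and 753 lower, and 1378 of the 1529 were still called; the numbers do not pair the samples. For the named genes, 4103 comparisons with alternatives gave the same call in 3866, lost it in 234, gained it in 3 and reversed the direction in 0. Apart from Nfatc1 and Matn1, these genes were called and had no overlap between the F344 and LEW arrays. Leaving out an array therefore could not reverse their direction. They were also picked from these same arrays, so the counts say little about genes in general. Calls were lost for 43 of the 231 named genes when single arrays were left out. The cause of these losses was not tested. Genes of low signal have larger errors, and 16 of the 60 largest differences rest on a strain mean under the filter level.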

Other observations

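Vessel and fat genes were not described above. Of endothelial genes, 3 of 14 kept members rose and 2 fell (falls numbered 1 without F344 replicate 1 or 4 or LEW replicate 2 or 3), median 0.056. Cldn5, a tight junction claudin, had signals of 1378, 1059, 1334 and 1469 in F344 and 2286, 2223, 1913 and 2409 in LEW (log2 difference -0.76, SE 0.12, limma adjusted p = 9.38e-05), and COP and DA were higher than both, at 4274 in COP and 3980.3 in DA. Pecam1, an adhesion molecule of endothelium and platelets, averaged 1035 ± 111 in F344 and 679 ± 102 in LEW (SD, n = 4 each, log2 difference 0.61, SE 0.11, limma adjusted p = 0.000495). The vascular growth factor receptor Kdr averaged 3847 ± 179 in F344 and 3063 ± 202 in LEW (SD, n = 4 each, log2 difference 0.33, SE 0.061, limma adjusted p = 0.000747) and endomucin, Emcn, 3916 in F344 and 3271 in LEW (log2 difference 0.26). Genes of one cell type thus differed in both directions. Of adipocyte genes, 3 of 14 kept members rose and 0 fell, among them fatty acid synthase Fasn at 4346 ± 216 in F344 and 3105 ± 306 in LEW (SD, n = 4 each, log2 difference 0.49, SE 0.084, limma adjusted p = 0.000338), with another probe set called the same way, and the triglyceride lipase Pnpla2 at 1788 in F344 and 1299 in LEW (log2 difference 0.47). The fat cell markers Adipoq and Plin1 had signals of 2535 to 3059 and 1165 to 1488 in F344, against 2713 to 2950.0 and 1157 to 1525 in LEW, ranges that overlapped.

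Gfap, an intermediate filament of astrocytes and of non-myelinating Schwann cells, had signals of 1116, 1191, 1163 and 1199 in F344 and 316, 229.8, 325 and 259 in LEW (log2 difference 2.06, SE 0.11, limma adjusted p = 1.31e-11), while Mbp, of myelin, was at 878 to 1340.0 in F344 and 1009 to 1501 in LEW. In complement and coagulation, 4 of 27 kept members rose and 4 fell (falls numbered 2 without F344 replicate 2): C1r, a protease of the classical pathway on chromosome 4, averaged 1866 ± 88.7 in F344 and 2509 ± 100 in LEW (SD, n = 4 each, log2 difference -0.43, SE 0.071, limma adjusted p = 0.000225), opposite to the C1q chains. Of clock genes 0 of 20 kept members rose and 1 fell, the kinase gene Csnk1d (-0.36, limma adjusted p = 0.00357), with 4 other kept probe sets not called. Ltc4s, leukotriene C4 synthase, rose by 0.53 (limma adjusted p = 0.000935).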
